A study of Mus musculus with 12 samples.

Results

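The genes described here are 10 genes of the white adipocyte and its secreted hormones, Adipoq, Lep, Retn, Plin1, Plin4, Cidec, Fabp4, Lpl, Lipe and Pparg, chosen by symbol and matched to 10 of the 55414 genes listed in the data. Their mRNA was measured in the inferior vena cava (IVC) of wild-type C57BL/6J mice, 10 weeks old, on day 7 after surgery. In 6 mice (AVF; 3 male, 3 female) an infrarenal aortocaval fistula, a direct opening between the aorta and the IVC, was made by needle puncture, and 6 mice (Sham; 3 male, 3 female) had the same surgery with no puncture. No group carried a transgene or an added drug beyond the anesthesia and analgesia that all mice received. Each mouse gave 1 RNA-seq library of poly(A) RNA, and a library is named here by operation, sex and replicate number.

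White adipocytes store triglyceride in a single large droplet and release it as fatty acids in fasting or under sympathetic drive, and they secrete hormones that report the state of the store. The droplet is coated by perilipins and enlarged by CIDE proteins, fatty acids enter through lipoprotein lipase and leave after the action of lipases, and PPARG is the transcription factor that sets up and maintains the program. Large veins lie in perivascular and retroperitoneal fat, where white and brown adipocytes can occur together, and most of the 10 genes are active in brown adipocytes too. FABP4, LPL and PPARG are also made by other cells, such as capillary endothelium and macrophages.

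Libraries held 15177881 to 22717423 expected counts, and values are normalized CPM, counts scaled to the TMM-normalized size of the library. Ribosomal RNA took 46% of the counts in AVF female 1 and 2.39% to 12.6% in the others. Markers of the vein wall were high in every library, with 6 smooth muscle markers summing to 2219 to 4797 CPM and 8 endothelial markers to 1746 to 2970 CPM. AVF male 2 and AVF female 2 stood apart. In these 2 libraries the 8 hepatocyte markers (Alb, Apoa1, Ttr, Fgb, Fgg, Serpina1c, Ahsg and Apoh) summed to 2768 and 8549 CPM, against 1.10 to 6.11 CPM in the other 10, so results are also given without them; 8 of 8 were called higher in AVF with these libraries, and 0 of the 2 that could be tested without them. All 10 adipocyte genes passed the filter on low values (more than 1 CPM in at least 2 libraries) and were above the 3 counts taken as detected in all 12 libraries. In bulk tissue, fewer adipocytes and less RNA per adipocyte cannot be told apart.

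Per kilobase of the main transcript, the scale on which genes can be compared, the levels in Sham spanned from 2777 ± 1090 CPM per kb (SD, n = 6) for Fabp4 to 7.02 ± 4.31 for Lep. Between them came Lpl (863 ± 241), Adipoq (297 ± 70.7), Retn (118 ± 58.4), Plin1 (88.2 ± 29.0), Cidec (84.8 ± 36.1), Lipe (40.0 ± 12.9), Plin4 (36.5 ± 11.0) and Pparg (26.0 ± 7.06). From Retn down to Pparg the SD range of each gene overlapped that of the next, whereas Fabp4, Lpl, Adipoq and Lep were each apart from their neighbours. In AVF Fabp4 (2384 ± 826), Lpl (710 ± 187), Adipoq (314 ± 97.9) and Retn (138 ± 60.1) again came first and Lep (6.52 ± 5.15) last. The lipid carrier and the capillary lipase thus had the most RNA per length, the transcription factor little and leptin the least.

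For Lep, at the low end of this order, and for Adipoq, the classic white fat hormone, the 300 bases around the start of the main transcript (250 before, 50 from the start on) are shown in the GRCm39 genome, 5′ to 3′ on the strand of the gene, at chr16:22965036-22965335 (plus strand) for Adipoq and chr6:29059966-29060265 (plus strand) for Lep. Capitals mark TTGCNNAA, a motif of C/EBP factors.
Adipoq: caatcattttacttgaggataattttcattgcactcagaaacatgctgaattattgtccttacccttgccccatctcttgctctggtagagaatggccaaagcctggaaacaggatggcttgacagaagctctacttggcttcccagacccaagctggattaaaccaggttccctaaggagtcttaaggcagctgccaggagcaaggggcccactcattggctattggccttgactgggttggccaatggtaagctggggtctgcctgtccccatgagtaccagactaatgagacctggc
Lep: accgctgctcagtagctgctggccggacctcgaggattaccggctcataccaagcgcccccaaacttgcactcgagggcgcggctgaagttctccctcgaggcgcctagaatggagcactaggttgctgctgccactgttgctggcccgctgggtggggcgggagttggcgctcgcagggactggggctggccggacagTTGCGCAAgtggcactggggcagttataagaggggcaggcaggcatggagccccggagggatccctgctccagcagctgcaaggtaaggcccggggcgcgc
Motifs were searched on both strands. TTGCNNAA was present in 3 of the 10 promoters, those of Lep at 51 bases before the start, Lpl at 58 bases before it and Plin1 at position 8, and in 10.7% of 21614 promoters of the same length; the match in Lep reads the same on both strands. AGGTCA, the core element of PPAR and RXR receptors, was in 1 of 10 and in 15.1% of all, and its direct repeat with 1 base between the copies and up to 1 mismatch was in 0 of 10 and in 0.421% of all. TATAAA was in 2 of 10 (Lpl and Pparg, both on the opposite strand) and in 13.2% of all. A match describes these letters only.

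The first comparison asked whether the fistula changed the adipocyte program of the vein. At an adjusted p under 0.05 in the quasi-likelihood fit of edgeR, 0 of 10 were lower in AVF (5.13% of the 15912 tested genes were) and 0 of 10 were higher (8.63% of all). At an unadjusted p under 0.05 the count was also 0 in both directions, and the Wald test of DESeq2 and the exact test of edgeR called 0 of 10 each way. The log2 fold change was negative for 6 genes and positive for 4, from -0.38 to 0.23, with a median of -0.15 against -0.01 over all tested genes. AVF and Sham libraries overlapped in all 10 genes, and 4.55% of all tested genes lay wholly higher in AVF and 1.51% wholly higher in Sham. A count of 0 in 10 genes is near these shares and near those of the calls. Without AVF male 2 and AVF female 2 the count stayed 0 of 10 in both directions, where 2.05% of 15531 genes were called lower and 5.87% higher.

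**Figure D1:**
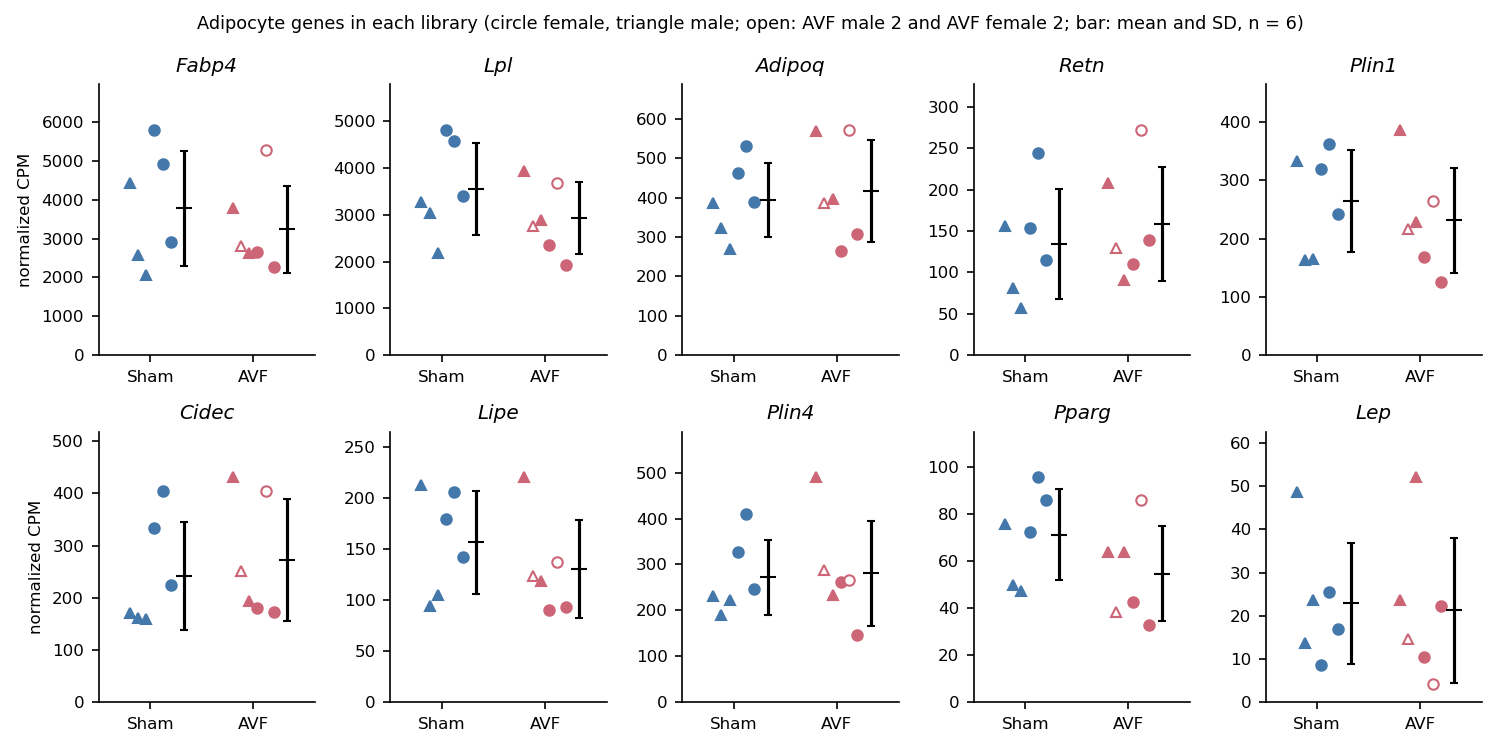
Normalized CPM of each adipocyte gene (y axis, linear from 0) in the 6 Sham and 6 AVF libraries, in order of level per kb. Circles are female and triangles male mice, open symbols are AVF male 2 and AVF female 2, and bars give the mean and SD of each group; the groups overlap in every panel, and AVF male 1 is the highest library in 4 of them.

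Among the secreted hormones, Adipoq (chr16:22964106-22976810) encodes adiponectin, which sensitizes tissues to insulin. It ranged from 264 to 573 CPM in AVF with a median of 391, and from 271 to 531 CPM in Sham with a median of 387. The means were 416 ± 130 in AVF and 394 ± 93.6 in Sham (SD, n = 6 each), a log2 fold change of 0.08 (SE 0.21, adjusted p = 0.83 by edgeR). The 95% interval of the ratio ran from 0.769 to 1.45, so a change to under 0.769 of the Sham level lay outside it. AVF female 1 was lowest and AVF female 2 highest of the AVF libraries.

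Retn (chr8:3705324-3710689) encodes resistin, an adipocyte hormone in the mouse that opposes insulin. Its level was 90.3 to 272 CPM in AVF (median 134) and 56.5 to 244 CPM in Sham (median 134), and the log2 fold change was 0.23 (SE 0.35, adjusted p = 0.69). Sham male 3 was the lowest of the 12 libraries and AVF female 2 the highest. Without AVF male 2 and AVF female 2 the mean in AVF was 137 ± 51.3 CPM (SD, n = 4), against 134 ± 66.8 in Sham.

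Lep (chr6:29060216-29073877) encodes leptin, the satiety hormone whose mRNA follows the size of the fat store. It had the widest spread of the 10 genes, from 4.33 CPM in AVF female 2 to 52.2 CPM in AVF male 3, a ratio of 12.1 between AVF libraries. In Sham it went from 8.77 CPM in Sham female 1 to 48.7 CPM in Sham male 1. The medians were 18.5 in AVF and 20.3 in Sham, and the log2 fold change was -0.10 (SE 0.52, adjusted p = 0.92). The 95% interval of the ratio, 0.428 to 2.03, was the widest of the 10, and the difference turned positive, 0.26, without AVF male 2 and AVF female 2.

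The droplet proteins did not pass the test either. Plin1 (chr7:79369966-79382718), the perilipin that guards the droplet and admits lipases on hormonal signals, ranged from 125 to 387 CPM in AVF (median 222) and from 163 to 363 CPM in Sham (median 281), with a log2 fold change of -0.19 (SE 0.27, adjusted p = 0.67). Plin4 (chr17:56406617-56416931), a perilipin of small new droplets in white adipocytes, was at 146 to 491 CPM in AVF (median 264) and 191 to 410 CPM in Sham (median 239), with a log2 fold change of 0.05 (SE 0.26, adjusted p = 0.92). AVF female 3 was the lowest and AVF male 1 the highest of all 12 libraries for both perilipins.

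Cidec (chr6:113400691-113412721), also known as Fsp27, fuses droplets into the single large one of white fat. It measured 172 to 432 CPM in AVF (median 223) and 160 to 404 CPM in Sham (median 198), for a log2 fold change of 0.17 (SE 0.31, adjusted p = 0.75). The 3 male Sham libraries lay close together, at 161, 160 and 171 CPM, below every other library of the 12.

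For fatty acid handling, Fabp4 (chr3:10268785-10273737), the cytoplasmic carrier of fatty acids, was at 2265 to 5279 CPM in AVF (median 2738) and 2052 to 5803 CPM in Sham (median 3664). Its log2 fold change was -0.22 (SE 0.28, adjusted p = 0.63). The high AVF value came from AVF female 2, and without the 2 libraries the mean in AVF was 2839 ± 665 CPM (SD, n = 4) against 3777 ± 1482 in Sham, with a log2 fold change of -0.42 that did not pass the test (adjusted p = 0.39).

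Lpl (chr8:69284603-69360100), which frees fatty acids from lipoproteins at the capillary wall, ranged from 1927 to 3939 CPM in AVF (median 2822) and from 2183 to 4822 CPM in Sham (median 3340). Its log2 fold change was -0.28 (SE 0.22, adjusted p = 0.41). Sham female 1 and Sham female 2 were above all AVF libraries, and the other 10 libraries overlapped.

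Lipe (chr7:25078880-25098135), the hormone-sensitive lipase of the droplet, was at 90.3 to 221 CPM in AVF (median 121) and 94.6 to 213 CPM in Sham (median 161). The log2 fold change was -0.26 (SE 0.25, adjusted p = 0.51). Pparg (chr6:115337675-115468268) was at 32.7 to 85.9 CPM in AVF (median 53.3) and 47.2 to 95.7 CPM in Sham (median 73.9), the largest difference of the 10 at -0.38 (SE 0.25) and the lowest adjusted p, 0.31. Its 95% interval of the ratio was 0.531 to 1.11.

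The spread between mice was wide in both groups. The coefficient of variation over 6 libraries was 26.3% to 43.5% in AVF and 23.8% to 49.7% in Sham for the genes other than Lep, and 79.0% and 61.5% for Lep. Summed over the 10 genes, the level was 5230 to 10970 CPM in AVF and 5287 to 12480 CPM in Sham. AVF male 1 was the highest of the 12 libraries in 4 genes, whereas AVF female 3 was the lowest in 4 and Sham male 3 in 3. Of the 3 Sham females, Sham female 2 led all Sham libraries in 6 genes.

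Over the 12 libraries, 9 of the genes went up and down together, while Lep stood apart. The median Pearson correlation of a gene with the other members was 0.653 (Retn) to 0.824 (Plin1) for 9 genes, and -0.162 for Lep (log2 normalized CPM, n = 12 libraries). The highest of the 45 pairs was Plin1 with Lipe at 0.961, and Adipoq with Cidec reached 0.911, while Lep was at -0.376 with Cidec and 0.216 with Lipe. All pairs share the same libraries and normalization, so these values are descriptions. The part of fat content in them was not tested.

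**Figure D2:**
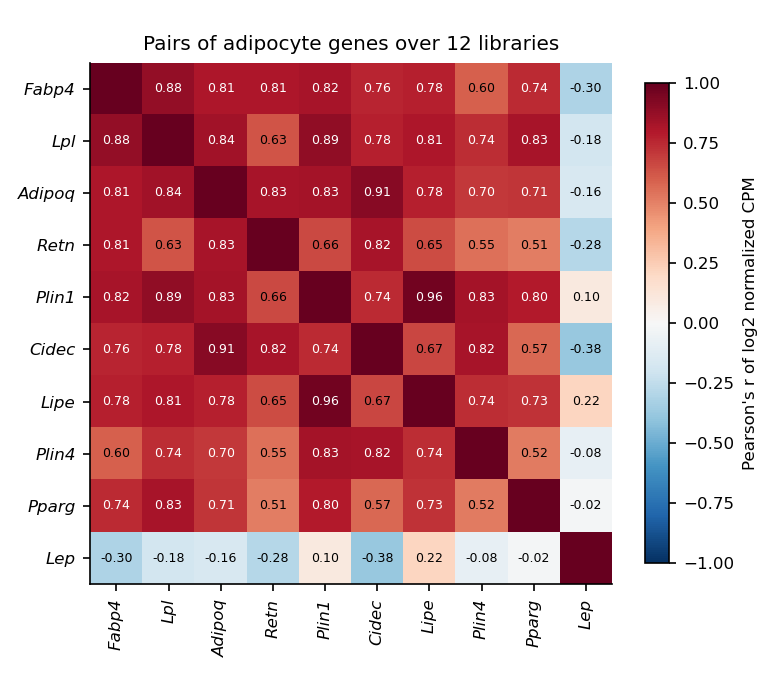
Pearson's r for each pair of the 10 genes over the 12 libraries (color scale from -1 to 1, values in the cells, log2 normalized CPM). The 9 genes before Lep form a block of positive values, and the row of Lep runs from -0.376 to 0.216.

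The genes outside the 10 most like Adipoq over the 12 libraries were Gstz1 (r = 0.972), Glns-ps1 (0.947), Sfxn1 (0.946), Scp2 (0.941), Bphl (0.934), Pxmp4 (0.934), Cd1d1 (0.932), Nr1h3 (0.930), Bscl2 (0.929) and Mccc1 (0.928). Bscl2 encodes seipin, the protein that shapes new droplets, Nr1h3 encodes the oxysterol receptor LXR alpha, and Glns-ps1 is a pseudogene at a mean of 0.648 CPM, where reads of the parent gene may be shared. Most like Lep were Gm32618 (0.911), Fig4 (0.888), Gm17081 (0.851), Fmo4 (0.838) and Pcdhga8 (0.805). Of these 5, Fig4, a phosphoinositide phosphatase, was at 20.3 CPM on average and the other 4 at 1.69 to 3.34 CPM.

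The second comparison was between the sexes. Within Sham, 9 of the 10 genes had a higher mean in females and Lep a lower one, yet 0 of 10 passed the test by edgeR (0.0451% of 22163 genes did), and 1 gene, Cidec, had an unadjusted p under 0.05. DESeq2 called 0 of 10 as well. The log2 fold change of female against male was 0.99 for Cidec (SE 0.37, adjusted p = 0.61), 0.82 for Retn (SE 0.47), 0.63 for Plin4 (SE 0.30), 0.61 for Lpl (SE 0.29), 0.52 for Adipoq (SE 0.29) and -0.72 for Lep (SE 0.65). The median over the 10 genes was 0.59, against 0.02 over all tested genes.

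In 4 genes (Adipoq, Plin4, Cidec and Lpl) every female Sham library lay above every male one, and in 0 genes the reverse. Over all tested genes 7.40% lay wholly higher in female Sham and 7.60% wholly higher in male Sham. Adipoq was at 271, 324 and 386 CPM in the males and 389, 463 and 531 CPM in the females. Plin4 was at 191, 224 and 231 CPM in the males and 247, 328 and 410 CPM in the females. Adipoq thus had a gap between the sexes narrower than the distances within them. The brown fat markers were also higher in most female Sham libraries, and 12 of them summed to 259, 412 and 1251 CPM in the male and 767, 1579 and 2200 CPM in the female Sham libraries, but their part in these differences was not tested.

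Within AVF the sexes were not ordered this way. By edgeR 0 of 10 genes passed the test (0.0226% of 22163 genes did), with 0 at an unadjusted p under 0.05 and 0 by DESeq2, and 8 of 10 log2 fold changes were negative, with a median of -0.27. No gene had separate sexes (3.83% of all genes lay wholly higher in female AVF and 4.54% wholly higher in male AVF). Lep was at 14.6, 23.7 and 52.2 CPM in the males and 4.33, 10.5 and 22.4 CPM in the females, a log2 fold change of -1.29 (SE 0.67, adjusted p = 0.98). Leptin was thus lower on average in females under both operations, and neither difference passed the test.

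The effect of the fistula on each sex was therefore set side by side. In males 9 of 10 genes had a positive log2 fold change, with a median of 0.26 and a range from -0.05 to 0.84, and in females 10 of 10 were negative, with a median of -0.54 and a range down to -0.76. The largest in males were Cidec at 0.84 (SE 0.37), Plin4 at 0.66 (SE 0.30) and Retn at 0.55 (SE 0.47). AVF male 1 was the highest of all libraries in 4 genes. For Lipe it was at 221 CPM, against 123 and 118 CPM in the other AVF males and 213, 94.6 and 105 CPM in the Sham males. For Cidec the AVF males (432, 251 and 194 CPM) were all above the Sham males (171, 161 and 160 CPM). The part of AVF male 1 in the male values was not tested. In females they were Plin1 at -0.76 (SE 0.36), Lipe at -0.75 (SE 0.34) and Lpl at -0.72 (SE 0.29). Among these 10 genes the lowest adjusted p by edgeR was 0.35 in males and 0.20 in females.

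The difference between the sexes in the effect of the fistula was tested as an interaction, and 0 of 10 genes passed (0.00% of 22163 genes, that is 0). DESeq2 called 0 of 10 of these genes and 3 genes in all. At an unadjusted p under 0.05 by edgeR the count was 1 to 7 of 10 with each sample left out in turn. With all samples it was 3 of 10 and 1069 of all genes. The 3 were Plin4 (interaction of -1.25, SE 0.42, 95% interval -2.17 to -0.32), Cidec (-1.21, SE 0.52) and Lpl (-0.89, SE 0.40), each with an adjusted p of 0.96. All 10 values were negative, with a median of -0.83 against -0.003 over all genes. Since 9 of the genes went up and down together over the mice, the 10 signs are not 10 separate observations.

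**Figure D3:**
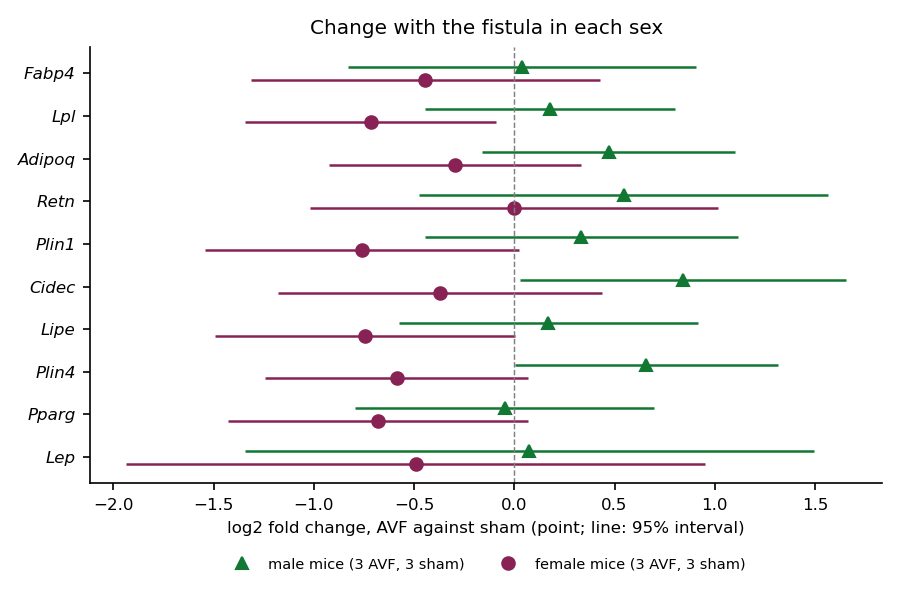
Log2 fold change of AVF against Sham for each gene (x axis) in male mice (triangles, 3 AVF and 3 Sham) and female mice (circles, 3 AVF and 3 Sham), with 95% intervals as lines. Points for females lie left of those for males in all 10 genes, the intervals are wide, and 0 of 10 interactions passed the test.

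Other genes of the same pathways were taken from lists chosen from general knowledge. Over all 15912 tested genes 5.13% were called lower in AVF and 8.63% higher. A single call in a list of 10 or 14 genes is near those shares. Of 14 other adipocyte genes, 1 was lower in AVF and 0 higher, with a median log2 fold change of -0.51. The 1 was Slc2a4, the insulin-regulated glucose transporter GLUT4, at 42.0 ± 10.4 CPM in AVF and 82.9 ± 38.0 in Sham (SD, n = 6; log2 fold change -0.98, SE 0.29, adjusted p = 0.042), and without AVF male 2 and AVF female 2 it was at -1.02 and not called (adjusted p = 0.10). Gpd1, which makes the glycerol backbone of triglyceride, was at -1.44 (SE 0.45, adjusted p = 0.0502), and Cfd, the adipokine adipsin, was at 744 ± 350 CPM in AVF and 618 ± 147 in Sham.

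In the fat store itself, 0 of 8 tested lipid droplet proteins passed in either direction (9 listed; Fitm1 was under the filter), and the lowest adjusted p was 0.054 for Plin5, the perilipin of oxidative cells, at -1.61 (SE 0.51). Of 7 genes of triglyceride synthesis 0 passed, with 6 negative and a median of -0.45, Dgat2 at -0.95 (SE 0.39, adjusted p = 0.12). Of 10 lipolysis genes 1 was lower, Npr1, a natriuretic peptide receptor, at -0.40 (SE 0.11, adjusted p = 0.031), which was at -0.38 and not called without AVF male 2 and AVF female 2 (adjusted p = 0.098). Pnpla2, the lipase that takes the first fatty acid before Lipe acts, was at 313 ± 103 CPM in AVF and 384 ± 156 in Sham and did not pass.

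Lpl and Fabp4 themselves were not called, and of 12 other genes of fatty acid capture 2 were lower. Fabp3, the fatty acid carrier of muscle and brown fat, fell from 31.9 ± 32.9 to 5.14 ± 2.45 CPM (log2 fold change -2.65, SE 0.57, adjusted p = 0.012). Vldlr, a lipoprotein receptor that works with Lpl, fell from 123 ± 14.2 to 91.9 ± 11.7 CPM (-0.42, SE 0.10, adjusted p = 0.020), and without AVF male 2 and AVF female 2 it was at -0.35 and not called (adjusted p = 0.091). Cd36, the fatty acid transporter, was at 1064 ± 295 CPM in AVF and 1270 ± 446 in Sham and did not pass.

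Around Pparg, 1 of 14 adipogenic transcription factors was lower and 1 higher, near the shares over all tested genes (5.13% lower, 8.63% higher). Rxrg, one of the RXR partners of Pparg, was lower (3.81 ± 0.825 CPM in AVF against 7.79 ± 1.25 in Sham, log2 fold change -1.03, SE 0.17, adjusted p = 0.0024). Rxra, another RXR partner, was higher (79.6 ± 12.8 against 62.0 ± 4.06 CPM, 0.36, SE 0.10, adjusted p = 0.032), a call lost without the 2 libraries (0.27, adjusted p = 0.092). Cebpa, which works with Pparg in mature adipocytes, was at -0.36 (SE 0.27, adjusted p = 0.39).

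Of 6 genes of the adipokine and insulin pathways (receptors and the insulin receptor substrate Irs1), 1 passed. Lepr, the receptor of leptin, was at 29.2 to 43.2 CPM in AVF and 56.9 to 106 CPM in Sham with no overlap, and the log2 fold change was -1.20 (SE 0.16, adjusted p = 0.00085). Adipor1 and Adipor2, the adiponectin receptors, were at -0.07 (SE 0.09) and -0.22 (SE 0.21) and did not pass. Hence the receptor of leptin was lower in AVF, while leptin itself was at 4.33 to 52.2 CPM in AVF and 8.77 to 48.7 CPM in Sham.

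Among the other adipokines, Apln, an adipokine and vascular peptide, was at 1.02 (SE 0.32, adjusted p = 0.051), and Retnla, a relative of Retn made by alternatively activated macrophages, was at 0.57 (SE 0.18, adjusted p = 0.052). Of 6 genes of white fat depots 1 was higher, Tcf21, a factor of visceral fat stroma, at 7.28 ± 1.38 CPM in AVF and 3.28 ± 1.45 in Sham (1.15, SE 0.29, adjusted p = 0.022).

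Brown fat markers gave the contrast to the 10 genes. Of 11 tested (12 listed; Zic1 was under the filter), 7 were lower in AVF and 0 higher, with a median log2 fold change of -1.76 against -0.15 for the 10 genes, and without AVF male 2 and AVF female 2 the median was -2.18 with 5 called lower. Those 7 were Cox7a1 at -2.82 (SE 0.48), Otop1 at -2.50 (SE 0.69), Cidea at -2.21 (SE 0.51), Cox8b at -1.99 (SE 0.48), Pank1 at -1.49 (SE 0.46), Kcnk3 at -1.14 (SE 0.20) and Prdm16 at -0.73 (SE 0.15). Without the 2 libraries, Cidea (-2.18, adjusted p = 0.052) and Otop1 (-2.60, adjusted p = 0.064) lost the call with log2 fold changes close to those with all libraries. Ucp1, the uncoupling protein of brown and beige adipocytes, was at 57.6 ± 51.0 CPM in AVF and 407 ± 392 in Sham (-2.83, SE 1.01, adjusted p = 0.079). Within Sham, Ucp1 was lowest in Sham male 2 (22.9 CPM) and highest in Sham female 1 (1088 CPM). Cox7a1, Cox8b and Pank1 had the same lowest and highest Sham libraries. Prdm16 had them reversed, at 20.7 CPM in Sham male 2 and 17.1 CPM in Sham female 1. Whether the 7 calls share 1 source was not tested. The earlier results of these data were known when this list was chosen, so its direction is not independent evidence.

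**Figure D4:**
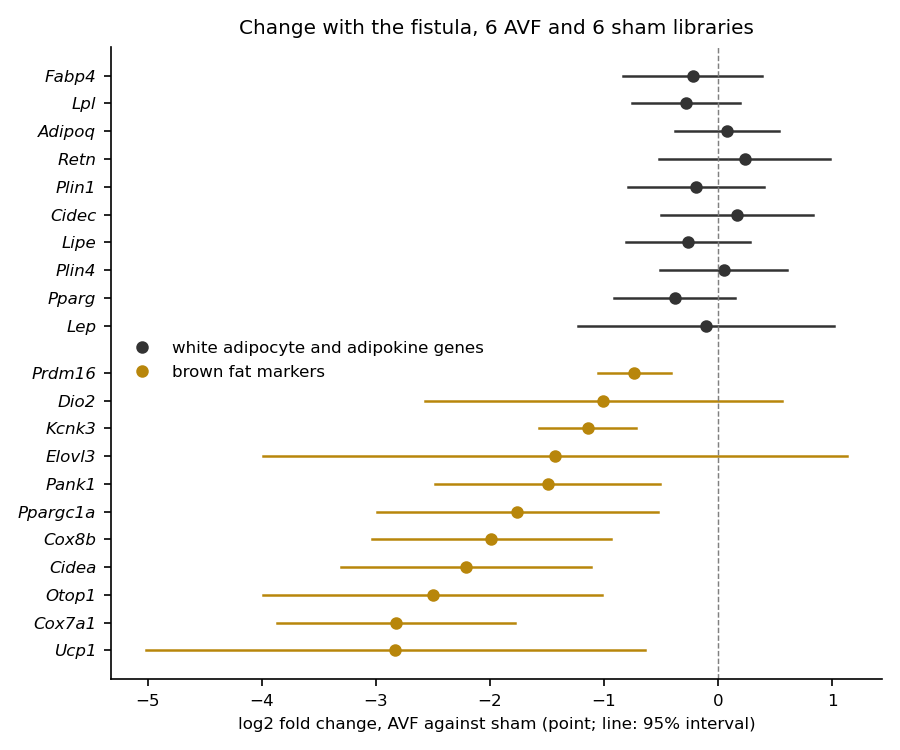
Log2 fold change of AVF against Sham (x axis; points, with 95% intervals as lines) for the 10 adipocyte genes (black) and the 11 tested brown fat markers (gold), from 6 AVF and 6 Sham libraries. The intervals of all 10 adipocyte genes include 0, with points from -0.38 to 0.23, and all 11 brown fat points are negative.

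Ratios of a related gene to an adipocyte gene within a library do not depend on the size of the library, and 3 were chosen after the values of these genes were seen, so they are described with no test. Cidea and Cidec are relatives, the first used in brown fat and the second in white. The ratio of Cidea to Cidec was 0.0324 to 0.139 in AVF and 0.265 to 1.17 in Sham, with no overlap. The log2 difference was -2.51 and, without AVF male 2 and AVF female 2, -2.43.

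The ratio of Ucp1 to Adipoq was 0.00547 to 0.367 in AVF and 0.0709 to 2.35 in Sham, and the 2 groups overlapped. Its log2 difference was -3.17 and, without the 2 libraries, -3.70. The ratio of Lepr to Lep was 0.560 to 9.98 in AVF and 1.76 to 7.27 in Sham, a log2 difference of -0.89, and -1.47 without the 2 libraries.

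**Figure D5:**
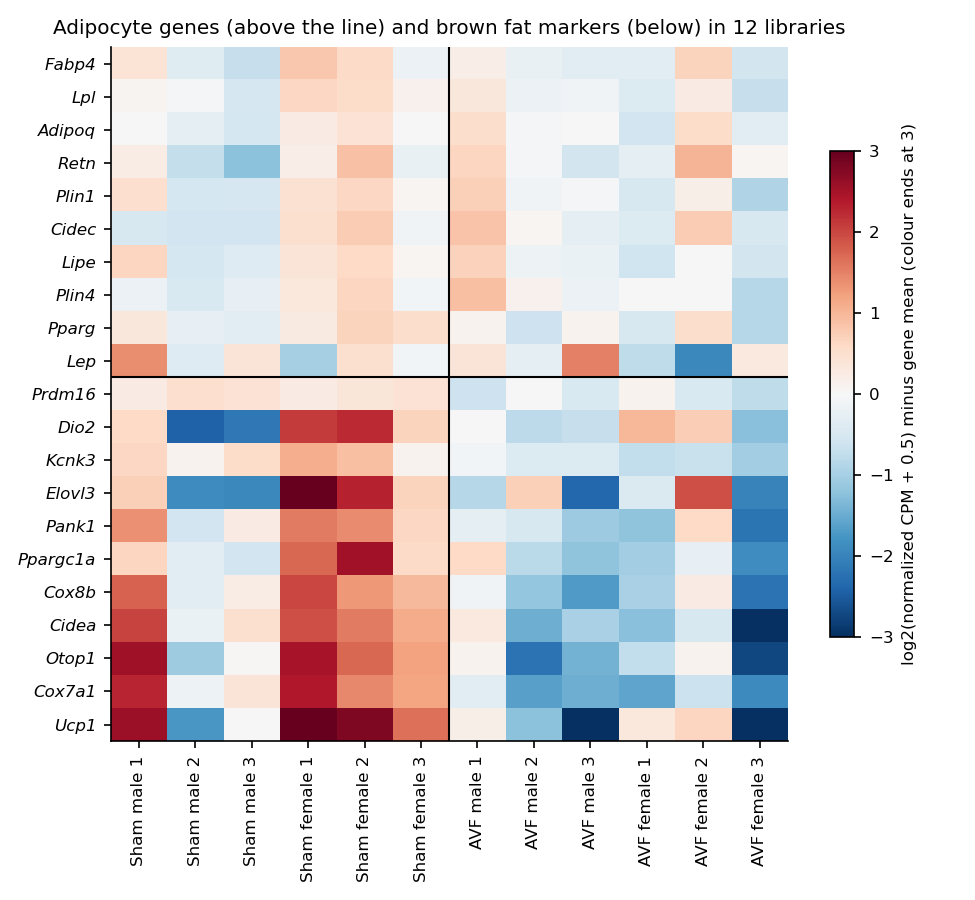
Log2(normalized CPM + 0.5) minus the mean of the gene over 12 libraries (color, from -3 to 3) for the 10 adipocyte genes above the line and 11 brown fat markers below it, with Sham libraries left and AVF libraries right. The upper rows show library-wise stripes that cross from Sham to AVF, such as the high AVF male 1, and the lower rows are mostly red in Sham, with Sham male 2 among the exceptions, and mostly blue in AVF.

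Other cell types that a vein sample could hold were measured from lists of the same kind. Macrophage markers were higher in AVF in 7 of 8 genes (C1qb 0.89, SE 0.15, adjusted p = 0.0031), and their sum was 1120 to 1832 CPM in AVF and 583 to 969 CPM in Sham. Of 8 fat progenitor markers 2 were higher, Pi16 at 0.89 (SE 0.18, adjusted p = 0.0076) and Pdgfrb at 0.56 (SE 0.14, adjusted p = 0.021), and Pdgfra, which marks the whole pool, was at 0.04 (SE 0.16). Endothelial (8 genes), smooth muscle (6 genes) and mesothelial (6 genes) markers had 0 calls, with medians of -0.07, 0.26 and 1.67. The 7 markers of sympathetic neurons, the nerves that drive lipolysis, were negative throughout with a median of -1.17 and 0 calls, the lowest adjusted p being 0.056 for Npy. The part of these cells in the values of the 10 adipocyte genes was not tested.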

How the data were processed

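RNA-seq of the IVC of 12 mice was analysed. Per the submitters' notes and the methods of the study, reads were trimmed with PRINSEQ and Trimmomatic 0.39, aligned to GRCm39 with STAR 2.7.7a and quantified with RSEM 1.3.3. The authors deposited expected counts per gene, which are estimated counts shared between similar genes and are not normalized; between 5.72% and 7.75% of them in each library had decimals. No other column of samples was present. Gene names, coordinates and transcripts came from GENCODE M39 on GRCm39, a later release than the annotation of the authors, and 54749 of 55414 identifiers had a name. Promoter sequence was read from that genome.

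Counts were rounded, normalized by TMM and tested with edgeR 4.0.16 (limma 3.58.1, R 4.3.3) by the quasi-likelihood test, with Benjamini-Hochberg adjustment over all tested genes and a threshold of 0.05. AVF and Sham were compared over genes above 1 CPM in 2 or more libraries; the sexes and the interaction were tested in a model of 4 groups over genes with more than 12 counts in all. The p-values weigh a difference between groups against the spread between these mice. A library with 3 counts of a gene had 0.127 to 0.323 CPM, which covers counting error only. Code was tested on simulated data.

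Alternatives were DESeq2 1.42.0, the exact test of edgeR, other scaling, filters and covariates, a block of the replicate number in the labels, libraries without ribosomal RNA genes, and samples left out. Groups came from the sample labels, and the subgroups of AVF named in the study were not used as groups in the main fits. AVF male 2 (mouse 5) and AVF female 2 (mouse 9) are the samples that the study set apart as outliers. Fits without them therefore hold the AVF samples that the study called normal. The 10 genes, the lists and the ratios were chosen with earlier results of these data known. Named are the 10 genes, up to 3 genes of each list with the lowest adjusted p, genes whose role a sentence turns on, Ucp1, and the genes most like Adipoq and Lep. Some items are not reported here.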

Additional observations from a re-analysis of the deposited data

Results flagged for a closer look

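Groups of 6 libraries were searched for 1 library far from the others in 77 named genes (154 groups) with Dixon's test, which flags about 1 group in 20 by chance, and 3 groups were found. None of the 10 adipocyte genes was among them. All 3 were in Sham females. Dpp4, a marker of fat progenitors, was at 16.4 CPM in Sham female 2 against 9.73 to 11.6 CPM in the other Sham libraries (gap over range 0.669). In Sham female 1, Tie1, an endothelial receptor, was at 111 CPM against 68.2 to 81.4 CPM (0.632), and Npy, a peptide of sympathetic nerves, at 41.2 CPM against 117 to 167 CPM (0.746).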

How the results depend on the processing

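The 10 adipocyte genes had 0 calls in either direction in AVF against Sham in all 23 alternatives, and 218 of 230 values of single genes kept their direction, with adjusted p of 0.13 or more by every fit. The signs that turned belong to genes near 0: without AVF male 2 and AVF female 2, Adipoq was at -0.03 and Lep at 0.26, and with each sample left out in turn Adipoq ranged from -0.036 to 0.20, Lep from -0.60 to 0.27, Plin4 from -0.18 to 0.21 and Cidec from -0.0099 to 0.38. The sexes and the interaction gave 0 of 10 called genes in every alternative run.

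Over all genes, DESeq2 called 1432 genes lower in AVF, a fit with no filter 477, and the fit without AVF male 2 and AVF female 2 319 lower and 911 higher, against 817 and 1373. Leaving out 1 sample gave 415 to 947 lower, with no more than 499 without AVF male 2, AVF male 3, AVF female 3, Sham male 1, Sham female 2 or Sham female 3, and 915 to 1599 higher. DESeq2 called 48 genes between the sexes in AVF, 162 in Sham and 3 in the interaction, and leaving out 1 sample gave 8 to 22 in Sham, 22 without Sham male 1 and 18 without Sham female 2. The cause of these shifts was not tested. Of the 14 other adipocyte genes, 2 were lower with the exact test, with DESeq2, with a replicate block or without ribosomal RNA genes, and 0 with either looser filter, with sex as a covariate or without the 2 libraries; leaving out 1 sample gave 0 to 2. With 1 sample out, the log2 difference of the ratio of Ucp1 to Adipoq was -3.78 to -2.46, that of Cidea to Cidec -2.68 to -2.23 and that of Lepr to Lep -1.33 to -0.50, described with no test.

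The replicate numbers of the labels were also used as a block. Same-numbered AVF and Sham mice of 1 sex correlated over 0.1 in 3 of 6 pairs, and 2 of 6 correlated best with their own number, so the mice were not taken as paired. With the block, 676 genes were lower and 1307 higher in AVF, 0 of the 10 adipocyte genes were called, and 11 genes differed between the sexes in AVF and 22 in Sham.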
